A study of Rattus norvegicus with 18 samples.

Results

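The 4 genes of the MEF2 transcription factor family (Mef2a, Mef2b, Mef2c and Mef2d) and 3 genes of class IIa histone deacetylases (Hdac4, Hdac5 and Hdac7) were followed in cultured rat hippocampal neurons. They were represented by all 13 probe sets that the array's annotation gives to these symbols alone, of 31042 probe sets tested; no probe set with several symbols listed any of them. Mef2a had 4 probe sets, Mef2c, Mef2d and Hdac5 had 2 each, and Mef2b, Hdac4 and Hdac7 had 1 each. On 18 Affymetrix arrays 6 groups were compared, each with 3 biological replicates per the labels. All neurons had received a lentivirus on day 3 in vitro and were sampled after day 10, when 4-hydroxytamoxifen (4OHT), a ligand of modified estrogen receptor domains, had been present for 0, 1 or 2.5 h. In 3 groups (0, 1 and 2.5 h) the virus carried MEF2-VP16-ER, a fusion of MEF2 with the viral VP16 activation domain and an estrogen receptor domain. In the 3 control groups (0, 1 and 2.5 h) it carried MEF2deltaDBD-VP16-ER, the fusion without the DNA-binding domain. Every group therefore expressed a VP16-ER fusion, and no array of untransduced neurons was analysed here. Which MEF2 protein was fused, the promoter that drove it, the share of cells transduced and the age and number of animals are not given in the sources used here.

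MEF2 proteins bind DNA through a MADS-box domain at their N terminus and regulate transcription in muscle, in neurons and in other cells. In neurons they respond to calcium signals and take part in the control of synapse number and of cell survival. Class IIa deacetylases bind MEF2 and repress its target genes; when calcium-dependent kinases phosphorylate them, 14-3-3 proteins hold them and they leave the nucleus, which frees MEF2.

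The deposited values are linear intensities, with medians of 190.3 to 196.9 over the 18 arrays. Tests were made with limma on log2(intensity + 16), on which changes of dim probe sets come out smaller than they are. The words rose, fell and changed are kept for an adjusted p, over all probe sets, under 0.05. Neuronal markers (6 of 6) and astrocyte markers (5 of 5) lay above the array's median level, as did excitatory (3 of 3), inhibitory (2 of 3), oligodendrocyte (2 of 4), microglial (2 of 5), fibroblast (1 of 4), muscle (1 of 4) and endothelial (0 of 3) markers in the numbers given. In such bulk RNA fewer cells of a type and less RNA per cell cannot be told apart. The values carry no detection calls, so whether a dim probe set was above background was not tested. The number of arrays limited the precision. Where arrays of a group are said to lie above others or not to overlap, the share of all probe sets that separate so was not counted.

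Hdac5, a class IIa deacetylase that shuttles between nucleus and cytoplasm, was the gene of the 7 that differed most between the neurons. On its probe set 1371819_at the control arrays of replicates 1, 2 and 3 read 1048, 1068 and 902 at 0 h, then 1051, 1110.4 and 918 at 1 h, and 1006, 947 and 996 at 2.5 h. The MEF2-VP16-ER arrays read 1300.1, 1349 and 1276 at 0 h, then 1729.5, 1297 and 1505 at 1 h, and 1859.6, 1728 and 2210.2 at 2.5 h. All 9 arrays with MEF2-VP16-ER were above the highest of the 9 control arrays. The 9 arrays of a construct are 3 replicate numbers at 3 times, and same-numbered arrays were correlated. The control groups overlapped one another at all times, the MEF2-VP16-ER arrays at 1 h overlapped those at 0 h and, by a margin of a few units, those at 2.5 h, and the latter all lay above those at 0 h.

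Over all times Hdac5 was higher with MEF2-VP16-ER by 0.63 ± 0.06 log2 units (SE, 9 arrays against 9, fold 1.54, limma adjusted p = 9.32e-05). Without the replicate block it was the only one of the 13 probe sets that passed in this comparison, in which 0.718% of all probe sets were called. Within MEF2-VP16-ER neurons Hdac5 rose from 0 h to 2.5 h by 0.55 ± 0.11 (3 arrays against 3, fold 1.46, limma adjusted p = 0.0226), again alone among the 13, where 0.789% of all probe sets were called. That call was lost without any 1 of 5 of the 6 arrays compared (limma adjusted p = 0.0614 to 0.130), the exception being replicate 2 at 2.5 h, without which it held (adjusted p = 0.0199). In control neurons the same change was -0.03 ± 0.11 (limma adjusted p = 1.00). The difference of the changes, called the induction from here on, was 0.58 ± 0.15 at 2.5 h (SE, 3 arrays in each of 4 groups; limma adjusted p = 0.285) and did not pass, with or without the replicate number as a block (adjusted p = 0.0986 with it). It was positive in each replicate number, at 0.57, 0.52 and 0.64. Of 7 probe sets of excitatory markers, 1 fell in MEF2-VP16-ER neurons over the same 2.5 h, that of the transcription factor Neurod6 (1393408_at), by 0.66 ± 0.12 (limma adjusted p = 0.0158). Its induction was -0.55 ± 0.17 (limma adjusted p = 0.521, and 0.0275 with the block). Among the 7 excitatory probe sets 4 had a positive induction at 2.5 h, with a median of 0.0052. The part of cell composition in the values of Hdac5 and Mef2a was not tested.

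Between the constructs Hdac5 already read 0.38 ± 0.11 higher with MEF2-VP16-ER before 4OHT (fold 1.30), a difference that did not pass over all probe sets (limma adjusted p = 0.428). The groups did not overlap at 0 h. A comparison at each later time was added after the values were seen. At 1 h 0.0612% of all probe sets were called without the replicate block and 0.254% with it, and of the 13 none and this one. The difference was 0.55 ± 0.11 at 1 h (limma adjusted p = 0.155, and 0.0407 with the block, but 0.0820 to 0.597 with the block and without any 1 replicate number) and 0.96 ± 0.11 at 2.5 h (fold 1.94, limma adjusted p = 0.000187). The other Hdac5 probe set, 1390438_at, was dim, between 119.8 and 165 on all arrays, and gave smaller values. Its difference over all times was 0.14 ± 0.04 (limma adjusted p = 0.182) and its induction at 2.5 h 0.13 ± 0.10 (adjusted p = 1.00). Across the 18 arrays the Hdac5 probe sets were correlated at r = 0.554, and at r = 0.0652 once group means were removed.

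**Figure D1:**
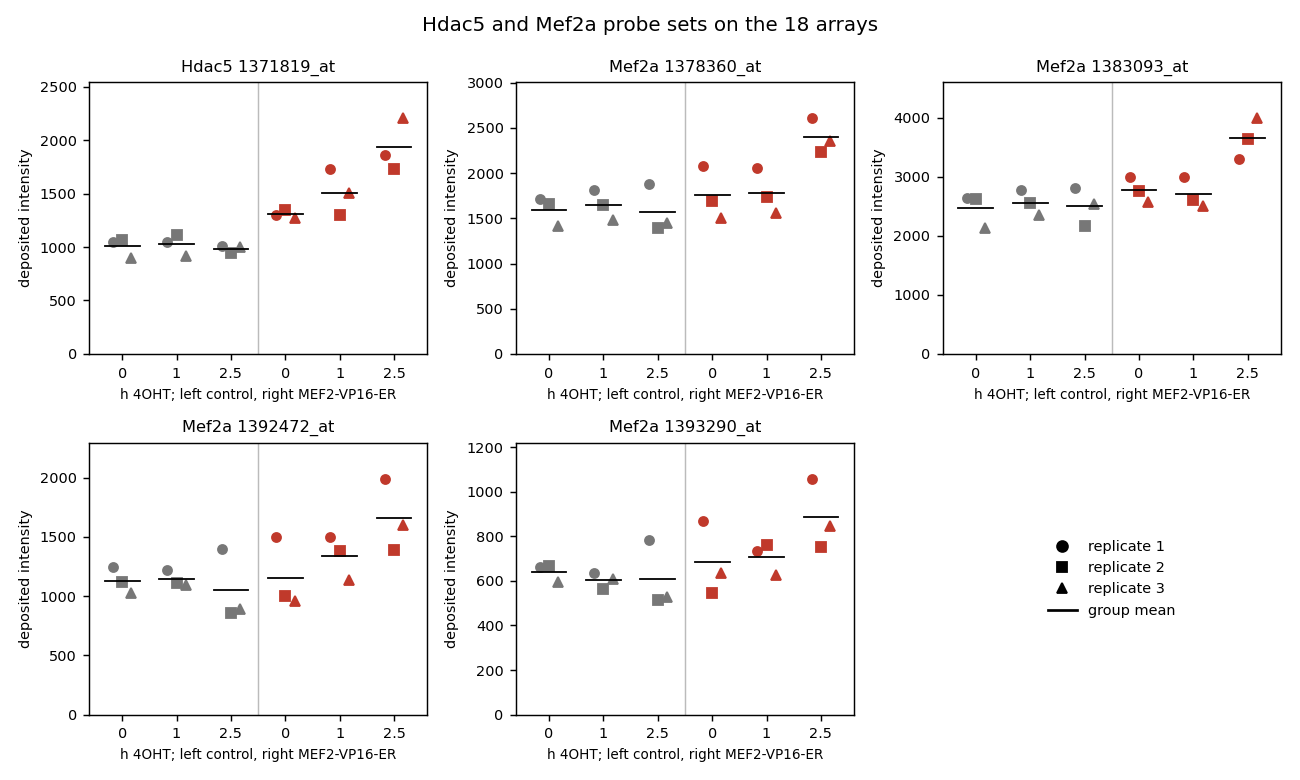
Deposited intensity (linear axis from 0) of the Hdac5 probe set 1371819_at and the 4 Mef2a probe sets on each of the 18 arrays, by hours of 4OHT, with control neurons in grey at the left of each panel and MEF2-VP16-ER neurons in red at the right. Symbols mark the replicate number and bars the mean of 3 arrays; all 9 red Hdac5 points lie above all 9 grey ones, and the Mef2a means are highest in MEF2-VP16-ER neurons at 2.5 h.

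Mef2a, one of the MEF2 factors abundant in brain, had its highest group mean in MEF2-VP16-ER neurons at 2.5 h of 4OHT on all 4 probe sets. On probe set 1378360_at the control arrays of replicates 1, 2 and 3 read 1715, 1660.0 and 1411 at 0 h, then 1808, 1647 and 1476 at 1 h, and 1878, 1388 and 1450.2 at 2.5 h. With MEF2-VP16-ER they read 2074, 1687 and 1503 at 0 h, then 2051, 1731 and 1563 at 1 h, and 2613, 2229 and 2358 at 2.5 h. The 3 arrays at 2.5 h were above all other 15, while the other 5 groups overlapped. Replicate 1 was the highest array in 6 of 6 groups on this probe set.

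Probe set 1383093_at also had its highest readings in that group. Its control arrays read 2643, 2628 and 2139 at 0 h, then 2780.0, 2549 and 2362 at 1 h, and 2813, 2164 and 2537 at 2.5 h. Its MEF2-VP16-ER arrays read 3000.4, 2754 and 2581 at 0 h, then 3000.1, 2612 and 2498 at 1 h, and 3308, 3642 and 4001 at 2.5 h. Here too the 3 arrays at 2.5 h stood above all others. On 1392472_at, with control arrays between 861 and 1395, the MEF2-VP16-ER arrays read 1498, 1003 and 956 at 0 h, then 1496, 1378 and 1139.6 at 1 h, and 1993, 1389 and 1603 at 2.5 h. On 1393290_at, with control arrays between 514 and 784, they read 869, 546 and 636 at 0 h, then 732, 759.8 and 627 at 1 h, and 1059, 751 and 845 at 2.5 h. On the last pair of probe sets the 2.5 h arrays overlapped those at 0 h, and replicate 1 was the highest array of both groups.

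The induction of Mef2a at 2.5 h was positive on all 4 probe sets, and none of them passed without the replicate block. In replicates 1, 2 and 3 it was 0.20, 0.65 and 0.60 on 1378360_at, and 0.24, 0.83 and 0.94 on 1392472_at. On 1383093_at it was 0.05, 0.68 and 0.39, and on 1393290_at 0.04, 0.81 and 0.56. Replicate 1 was the lowest on each and near 0 on the last pair. Over the replicates it was 0.49 ± 0.20 on 1378360_at (limma adjusted p = 0.910, and 0.0271 with the block), 0.67 ± 0.27 on 1392472_at (adjusted p = 0.910, and 0.0470 with the block), 0.37 ± 0.16 on 1383093_at (adjusted p = 0.954, and 0.382 with the block) and 0.47 ± 0.24 on 1393290_at (adjusted p = 1.00, and 0.329 with the block). The replicate numbers met the rule for pairing in this comparison. With the block, 2 of the 13 and 0.937% of all probe sets were called, against 0.177% of all without it. In the limma fit without it 0 of the 13 passed. There 5 of the 13 had an unadjusted p under 0.05, as did 1485 of all 31042 probe sets. With the block and without replicate 2 or 3 both calls were lost (limma adjusted p = 0.328 to 0.666), and without replicate 1 the call of 1392472_at held (adjusted p = 0.0250) while that of 1378360_at did not (adjusted p = 0.0757).

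Within MEF2-VP16-ER neurons Mef2a was higher at 2.5 h than at 0 h by 0.46 ± 0.14 on 1378360_at (limma adjusted p = 0.266, and 0.00143 with the block) and by 0.54 ± 0.19 on 1392472_at (adjusted p = 0.466, and 0.0102 with the block). The other pair of Mef2a probe sets gave 0.39 ± 0.11 and 0.38 ± 0.17 and did not pass in either fit. With the block 3 of the 13 probe sets passed, the third being Hdac5 1371819_at, where 2.33% of all probe sets were called. In control neurons no Mef2a value moved by more than its error, between -0.14 and 0.02 at 2.5 h (limma adjusted p = 1.00). Compared directly at 2.5 h, a comparison added after the values were seen, the constructs differed by 0.54 ± 0.11 on 1383093_at (limma adjusted p = 0.0241) and by 0.62 ± 0.14 on 1378360_at (adjusted p = 0.0428). With Hdac5 1371819_at these were 3 of the 13, where 1.28% of all probe sets were called, and with the block all 4 Mef2a probe sets and Hdac5 1371819_at passed, 5 of 13 against 3.49% of all. In the fit without the block the call of 1383093_at was lost without control 2.5 h replicate 2 or 3 or MEF2-VP16-ER 2.5 h replicate 2 or 3, and that of 1378360_at without any array but control 2.5 h replicate 1 (limma adjusted p = 0.0699 to 0.228 over these fits). The latter was also lost after quantile normalization (limma adjusted p = 0.0769) and with a pseudocount of 64 (adjusted p = 0.0506).

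Promoter sequences are shown for Mef2a and Hdac5 because their probe sets were the ones that passed in the comparisons above. The 300 bases around the annotated start (250 before, 50 after) were in the RefSeq-based table of build GRCr8 for 6 of the 7 genes, all but Mef2c. The MEF2 consensus, searched on both strands after the values were seen, matched once each in Mef2a and Hdac5 and not in the windows of Mef2b, Mef2d, Hdac4 and Hdac7. It matched in 3.29% of all 33469 promoters of this length. Of 50 promoters of the pathway genes and other deacetylases described further on, 1 held it, that of the 14-3-3 gene Ywhah. In both genes the match was the same 10 letters, CTAAAAATAG, on opposite strands, a string that 0.137% of all promoters hold on either strand. The string was taken from the Mef2a window after the values were seen, so its share describes these letters and tests nothing. The 250 bases before the start are printed 5′ to 3′ in the direction of the gene, with the match in capitals.
Mef2a, chr1:130392163-130392412, minus strand: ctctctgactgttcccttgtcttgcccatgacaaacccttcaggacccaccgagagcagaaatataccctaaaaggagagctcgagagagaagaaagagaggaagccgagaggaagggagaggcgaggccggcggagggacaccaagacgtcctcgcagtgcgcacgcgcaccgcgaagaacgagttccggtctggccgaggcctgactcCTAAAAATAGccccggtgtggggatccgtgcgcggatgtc
Hdac5, chr10:87688055-87688304, minus strand: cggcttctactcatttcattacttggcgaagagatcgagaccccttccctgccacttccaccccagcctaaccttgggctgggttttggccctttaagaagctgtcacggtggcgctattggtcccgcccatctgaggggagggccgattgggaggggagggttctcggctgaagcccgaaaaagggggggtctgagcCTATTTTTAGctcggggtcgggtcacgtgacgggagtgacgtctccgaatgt
The match lies 40 to 31 bases before the start in Mef2a and 52 to 43 bases before it in Hdac5, in the upstream sequence and outside the transcript. A match describes the letters of 1 annotated start per gene, and binding there was not measured.

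Whether a MEF2 probe set reads the introduced fusion bears on all values of these genes, and the comparison of the constructs at 0 h addresses it in part. None of the 9 MEF2 probe sets passed between the constructs at 0 h, with values from -0.10 to 0.17 log2 units (limma adjusted p = 0.689 or more). The lowest value was that of Mef2d 1369851_at, at -0.10 ± 0.06, where the MEF2-VP16-ER arrays read below the control arrays without overlap. How many of all probe sets separate in this way at 0 h was not counted. The upper ends of the 95% intervals ran from 0.04 on Mef2d 1369851_at to 0.44 on Mef2a 1393290_at, a fold of 1.35. At 0 h limma called 0% of all probe sets in either direction, 0 of the 13 among them with or without the block. An unadjusted p under 0.05 was found by limma for 1 of the 13, Hdac5 1371819_at, and for 2736 of all 31042 probe sets. Per the labels the constructs differ in the DNA-binding domain. A probe set in a part that both share would read alike in all groups only if both fusions were expressed equally, which was not tested. Without untransduced neurons such a reading cannot be told apart from the cells' own transcript. Probe positions were not analysed here. The estrogen receptor gene Esr1, of which both constructs carry a domain, differed by 0.24 ± 0.09 over all times on its 1 probe set (limma adjusted p = 0.266). It passed there with the block, in a comparison whose replicate numbers did not meet the rule for pairing. At 0, 1 and 2.5 h Esr1 read 0.19, 0.32 and 0.22 higher with MEF2-VP16-ER.

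**Figure D2:**
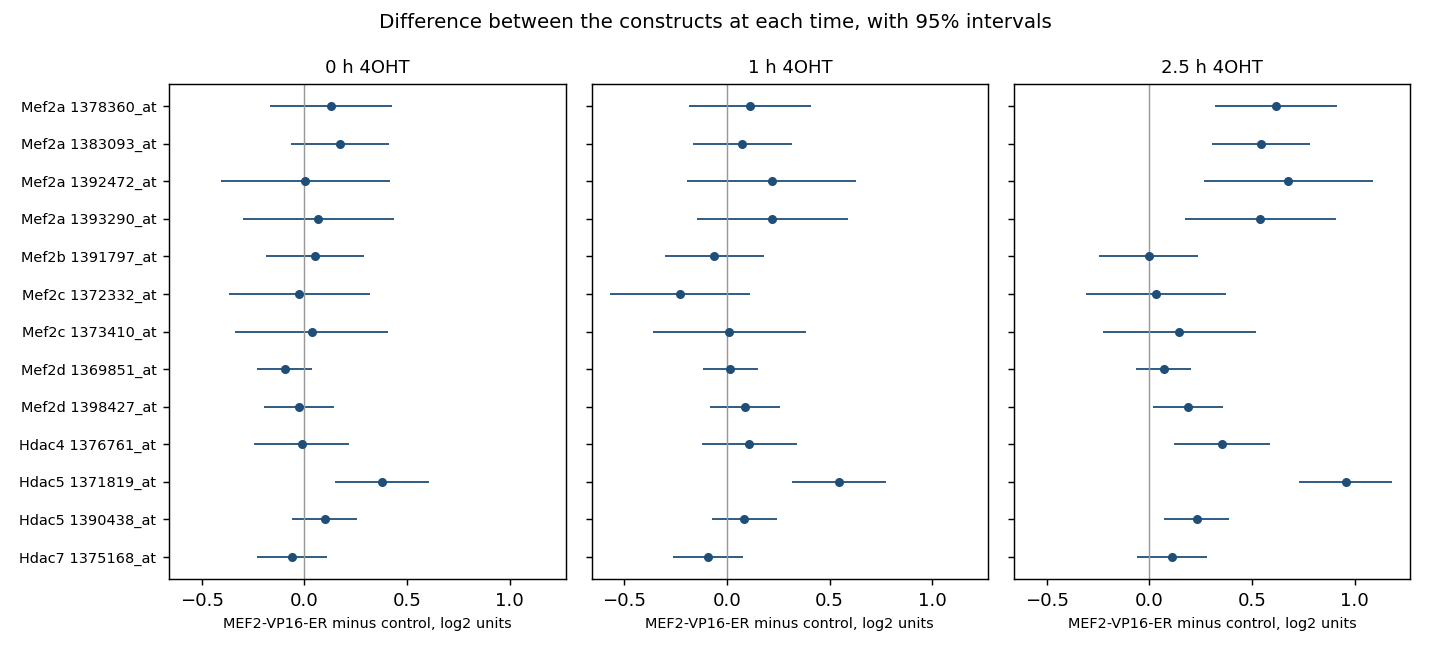
Difference between MEF2-VP16-ER and control neurons (log2 units of intensity + 16) for the 13 probe sets at 0, 1 and 2.5 h of 4OHT, with 95% intervals from limma without the replicate block. At 0 h the 9 MEF2 probe sets lie between -0.10 and 0.17 with intervals that span 0, and at 2.5 h Hdac5 1371819_at lies at 0.96 and the 4 Mef2a probe sets between 0.54 and 0.68.

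Mef2c, a MEF2 factor of cortical and hippocampal neurons that microglia and endothelium also express, passed in none of the comparisons made here, and its readings differed mainly by replicate number. On probe set 1372332_at the control arrays of replicates 1, 2 and 3 read 3291, 4518 and 4269.9 at 0 h, then 3502, 4478 and 4138 at 1 h, and 3663, 4164 and 4162 at 2.5 h. The MEF2-VP16-ER arrays read 3274, 4741 and 3885 at 0 h, then 3003, 3696 and 3619.8 at 1 h, and 3328, 4821 and 4225 at 2.5 h. Replicate 1 was the lowest and replicate 2 the highest array in 6 of 6 groups. Replicate number accounted for 72.2% of the sum of squares of this probe set and group for 19.1%. Astrocyte markers, by their mean log2 value, ran the other way, from 12 to 12.21 on the 6 arrays of replicate 1 and from 11.63 to 11.91 on those of replicates 2 and 3, and neuronal markers from 11.9 to 12.07 and from 11.88 to 12.16; their part in the Mef2c values was not tested.

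The induction of Mef2c was -0.21 ± 0.23 at 1 h and 0.06 ± 0.23 at 2.5 h on 1372332_at, and -0.03 ± 0.25 and 0.11 ± 0.25 on 1373410_at (limma adjusted p = 0.965 or more in either fit at 2.5 h, and 0.998 or more at 1 h without the block). Compared directly at 1 h, the constructs differed by -0.23 on 1372332_at. With the block its 95% interval ran from -0.37 to -0.09, and it did not pass (limma adjusted p = 0.346). Without the block the intervals of the induction at 2.5 h reached from -0.43 to 0.54 on 1372332_at and from -0.42 to 0.64 on 1373410_at. With it they reached from -0.14 to 0.25 and from -0.26 to 0.47. In each fit, changes within these ranges were not told from none. Probe set 1373410_at read between 1059.7 and 1704 on all arrays, with a correlation of r = 0.544 with the other over the 18 arrays.

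Mef2d, a MEF2 factor expressed in most tissues, gave narrow ranges. Its probe sets 1369851_at and 1398427_at read between 366 and 464 and between 359 and 480.0. With MEF2-VP16-ER the latter went from 403, 412 and 359 at 0 h to 424, 388 and 442 at 1 h and 390.0, 480.0 and 473 at 2.5 h, with 1 array of the last group within the range of the first. The inductions at 2.5 h were 0.17 ± 0.09 and 0.21 ± 0.11 (limma adjusted p = 1.00 for both). The probe sets did not move together, with r = -0.0585 over the 18 arrays. Mef2b, which is best known from B lymphocytes, was dim on its 1 probe set, between 120.0 and 165 on all arrays. Its induction at 2.5 h was -0.06 ± 0.16 (limma adjusted p = 1.00), and every group overlapped every other.

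Hdac4, a class IIa deacetylase with known roles in neurons, read 341, 380.0 and 330.3 in the control arrays at 0 h, then 359, 374 and 293 at 1 h, and 367, 270.5 and 338 at 2.5 h. The MEF2-VP16-ER arrays read 354, 358 and 328 at 0 h, then 396, 372 and 339 at 1 h, and 439.8, 378 and 435 at 2.5 h. The last group lay above all MEF2-VP16-ER arrays at 0 h and all control arrays at 2.5 h, and overlapped with other groups. Its induction at 2.5 h was 0.37 ± 0.15, positive in each replicate number, and did not pass (limma adjusted p = 0.945, and 0.402 with the block). Compared directly at 2.5 h, the Hdac4 values of the constructs differed by 0.35 ± 0.11. That difference did not pass either (limma adjusted p = 0.204, and 0.0675 with the block). Hdac7, a class IIa deacetylase best known from thymocytes and endothelium, read between 192 and 236 on all arrays, with an induction of 0.17 ± 0.11 at 2.5 h (adjusted p = 1.00).

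**Figure D3:**
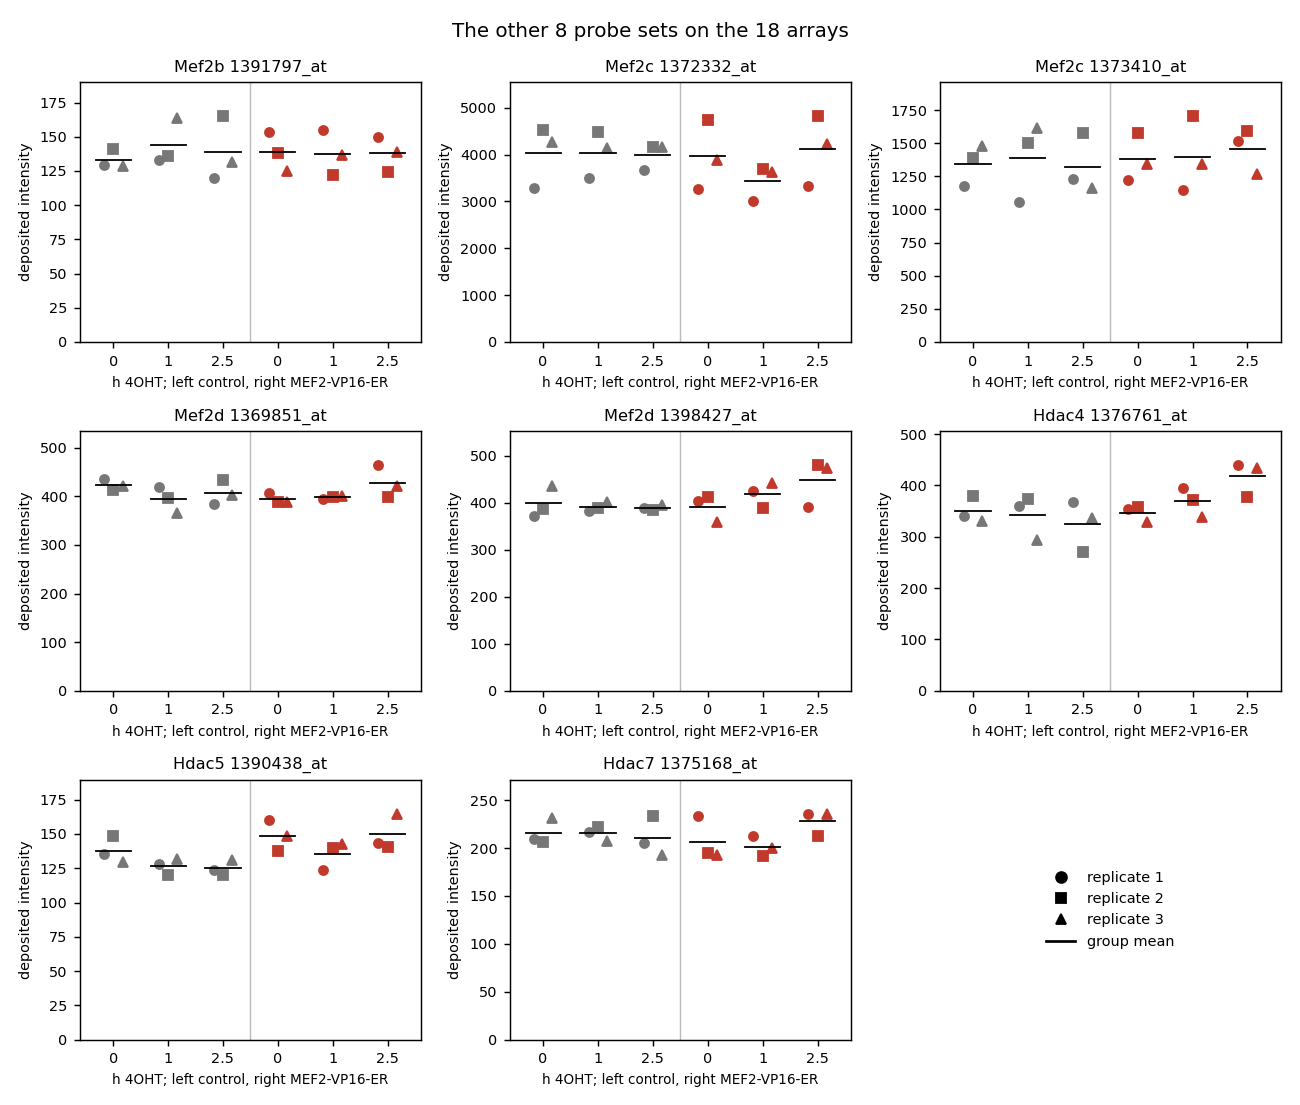
Deposited intensity (linear axis from 0) of the other 8 probe sets on the 18 arrays, by hours of 4OHT, with control neurons in grey and MEF2-VP16-ER neurons in red; symbols mark the replicate number and bars the mean of 3 arrays. On Mef2c 1372332_at replicate 1 is the lowest and replicate 2 the highest array in 6 of 6 groups, and Hdac4 has its highest mean in MEF2-VP16-ER neurons at 2.5 h.

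As a group, 12 of the 13 probe sets had a positive induction at 2.5 h, with a median of 0.21 log2 units, where 51.5% of all probe sets were positive with a median of 0.0037. The exception was Mef2b. At 1 h 6 of the 13 were positive, with a median of -0.01, where 44.1% of all were positive with a median of -0.02. None of the 13 passed at 1 h by limma, with or without the block, where 0.00322% of all probe sets were called without it. Without the block 0 of the 13 had an unadjusted p under 0.05, against 1459 of all 31042 probe sets. Within MEF2-VP16-ER neurons 0 of the 13 passed at 1 h by limma, against 0.0354% of all. There 0 of the 13 had an unadjusted p under 0.05, against 1293 of all 31042 probe sets. In control neurons 0 of the 13 passed at 1 h or at 2.5 h by limma, as did 0% of all probe sets. At either time 0 of the 13 had an unadjusted p under 0.05. Of all 31042 probe sets 840 did at 1 h and 667 at 2.5 h. The medians of the 13 were 0.01 and -0.03. Both inductions share the same 0 h arrays, and the difference between the times was not tested. The members are not independent, since probe sets of 1 gene read the same transcript.

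**Figure D4:**
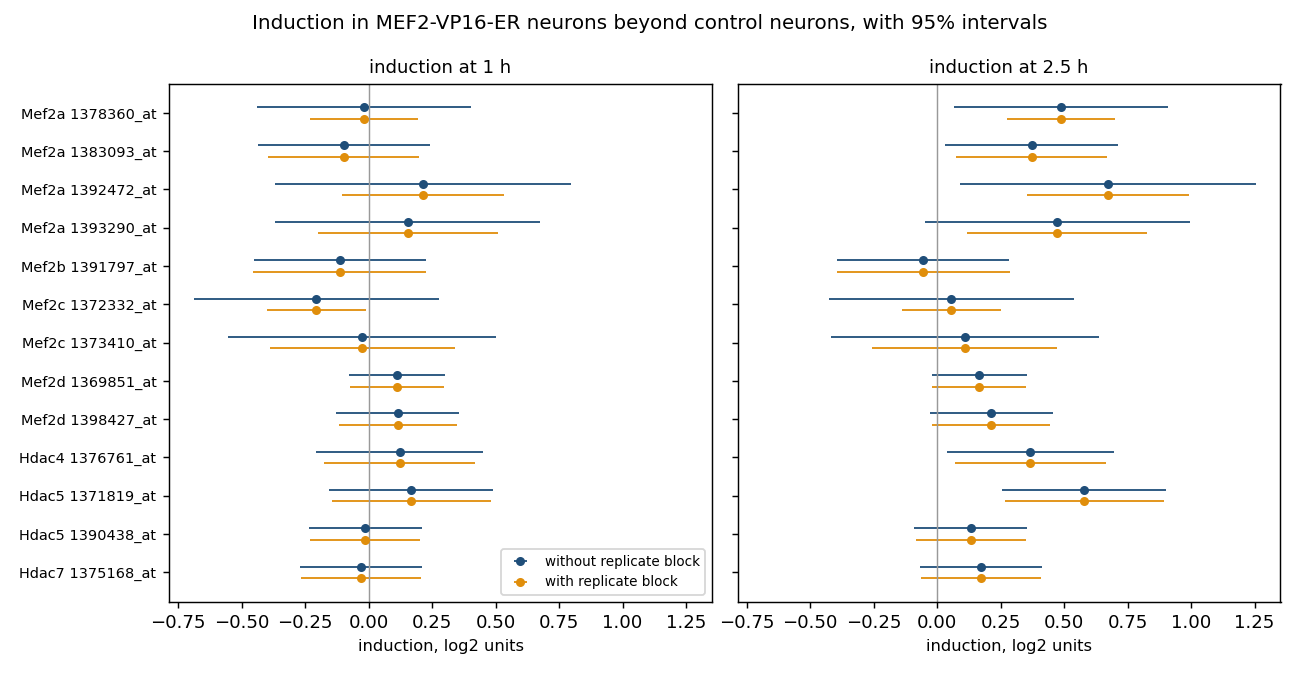
Induction (the change since 0 h with MEF2-VP16-ER less the change in the controls, log2 units of intensity + 16) of the 13 probe sets at 1 h and 2.5 h, with 95% intervals from limma without (blue) and with (orange) the replicate number as a block. At 1 h the values lie between -0.21 and 0.21 and at 2.5 h between -0.06 and 0.67, with Mef2a 1392472_at the highest.

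Of the other histone deacetylases, Hdac9, the remaining class IIa gene, had no probe set annotated to its symbol alone. The 7 measured genes (Hdac1, Hdac2, Hdac3, Hdac6, Hdac8, Hdac10 and Hdac11) had 11 probe sets. None rose or fell in the induction at 1 h or 2.5 h by limma, with or without the block, and 0 had an unadjusted p under 0.05. At 2.5 h 3 of the 11 were positive, with a median of -0.07. A further list held 46 measured genes around MEF2 and the class IIa deacetylases, with 81 probe sets. They were calcium-dependent kinases and phosphatases, kinases of MEF2 and of the deacetylases, 14-3-3 proteins, and cofactors. None changed in either induction by limma without the block. An unadjusted p under 0.05 was found there for 4 of the 81 at 1 h and 3 at 2.5 h. Of all 31042 probe sets it was found for 1459 at 1 h and 1485 at 2.5 h. With the block 1 probe set of 81 rose at 2.5 h, where 0.937% of all were called. That was Sik2, which encodes a salt-inducible kinase that phosphorylates class IIa deacetylases, at 0.40 ± 0.11 on 1376649_at (limma adjusted p = 0.389, and 0.0224 with the block).

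Within MEF2-VP16-ER neurons 1 of these 81 probe sets rose from 0 h to 2.5 h and 1 fell, both of salt-inducible kinases, where 0.789% of all probe sets were called. Sik2 rose by 0.37 ± 0.08 on 1376649_at (limma adjusted p = 0.0457), and Sik1, the kinase of the same family that is itself induced by activity, fell by 0.44 ± 0.07 on 1368596_at (limma adjusted p = 0.00527). Each has another probe set that did not move with it, at 0.01 for Sik2 1394434_at and -0.07 for Sik1 1368597_at. In this change the list as a whole had 27 of 81 positive, with a median of -0.04. In the induction at 2.5 h 33 of 81 were positive, with a median of -0.03.

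The genes whose log2 values followed a member most closely over the 18 arrays were found by Pearson's r among 12111 to 12114 brighter probe sets with a gene name. For Hdac5 1371819_at these were Kctd12 (r = 0.941), Mylip (0.937) and Dzip1l (0.936). For Mef2a 1383093_at they were Prkaa1 (r = 0.959), Magi3 (0.947) and Lgalsl (0.947). With group means removed, the first of these stayed at r = 0.667 for Kctd12 and 0.909 for Prkaa1. Pcp4 was closest to Mef2c 1372332_at (r = 0.927), and at r = 0.949 with group means removed. Zfp318 was closest to Hdac4 (r = 0.932), and Best2 to Mef2d 1369851_at (r = 0.783). These arrays share replicate numbers and groups, and r describes them without a test.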

How the data were processed

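The authors deposited 1 intensity per probe set and array on a linear scale, from biotin-labelled cRNA per the labels; the summary and normalization methods are not given in the sources used here. The labels gave each array's group and replicate number. Values were used as deposited, as log2(intensity + 16), without further scaling or a filter; 57 control probe sets were left out. All 18 arrays entered 1 limma model of 6 group means, with eBayes and Benjamini-Hochberg adjustment over 31042 probe sets within a contrast. Residuals had 12 degrees of freedom and the prior 2.89. Every probe set with 1 of the 7 symbols alone is reported, with the pathway list and the genes most correlated with 5 members. Of these genes, 3 are named for Hdac5 and Mef2a each and 1 for Mef2c, Mef2d and Hdac4 each. The members, lists and tests were chosen with earlier results of these data known.

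Replicate number was checked as a pairing: residuals of same-numbered arrays were correlated above 0.1 in 18 of 18 pairs for the induction at 2.5 h (lowest 0.214), in 3 of 3 pairs for each other comparison of 2 groups except the change in MEF2-VP16-ER neurons at 1 h, and in 17 of 18 for the induction at 1 h. Where all pairs passed, values with the number as a block are given if they change a call. Whether the replicates were separate cultures beyond the label is not given, so p values measure the spread between these samples. The steps were tested on simulated data. Figures were drawn with matplotlib 3.10.9 in Python 3.11.15, and models fitted with limma 3.58.1 under R 4.3.3.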

Additional observations from a re-analysis of the deposited data

Results flagged for a closer look

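The induction at 2.5 h, which is the difference between the constructs in their change from 0 h, passed on 2 Mef2a probe sets in limma with the replicate number as a block: 0.49 on 1378360_at (adjusted p = 0.0271) and 0.67 on 1392472_at (adjusted p = 0.0470). In replicates 1, 2 and 3 it was 0.20, 0.65 and 0.60 on the former and 0.24, 0.83 and 0.94 on the latter. Neither passed without the block, and with it 0.937% of all probe sets were called. With the block, both calls were lost without replicate 2 or 3, and that of 1378360_at also without replicate 1.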

How the results depend on the processing

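No called member changed sign in any of the 33 other settings; 260 of 3009 recomputed values changed sign, none of them called. The number of the 13 probe sets called moved by over 1.5 times as follows. With the replicate block it went from 1 to 5 for the construct difference over all times (the 4 Mef2a probe sets, adjusted p = 0.000735 to 0.0324), from 0 to 2 for the induction at 2.5 h, from 1 to 3 for the change in MEF2-VP16-ER neurons at 2.5 h, and, in the comparisons added after the values were seen, from 0 to 1 for the constructs at 1 h and from 3 to 5 at 2.5 h. The block changed no other count of members. Over all probe sets the calls of these 5 comparisons, in that order, went from 223 to 1189, 55 to 291, 245 to 724, 19 to 79 and 397 to 1083, and elsewhere from 1 to 9 for the induction at 1 h and from 11 to 58 for MEF2-VP16-ER neurons at 1 h. In the first of these the replicate numbers did not meet the rule for pairing (44 of 45 pairs above 0.1, lowest 0.0677), although each of the 18 arrays was closest to one of its own number; Esr1 (0.24) passed there with the block too (adjusted p = 0.0245). The block together with median centring, added after the values were seen, gave 5, 2, 4, 1 and 5. When a fit held no other groups than those compared, the change in MEF2-VP16-ER neurons at 2.5 h went from 1 to 0 (Hdac5, adjusted p = 0.122) and the constructs at 2.5 h from 3 to 1; this last was 2 after quantile normalization and with a pseudocount of 64. Without single arrays or a replicate number these counts ran from 0 to 1 and from 1 to 5. Over all probe sets the calls ran there from 52 to 225 and from 68 to 364. With the block and without a replicate number, also added later, counts ran from 2 to 4 for all times, 0 to 1 for the induction at 2.5 h, 0 to 3 for the change in MEF2-VP16-ER neurons, 0 in 3 of 3 fits for the constructs at 1 h and 2 to 5 for the constructs at 2.5 h. Calls over all probe sets were 274 to 921, 91 to 118, 316 to 426, 25 to 34 and 453 to 749, in that order. The cause was not tested. Hdac5 over all times passed in every setting (0.55 to 0.70, adjusted p = 1.42e-05 to 0.0242). Where all arrays of a number were left out, groups held 2 arrays.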
